A study of Caenorhabditis elegans with 4 samples.

Results

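The regions described here are the NHR-237 peaks on chromosome IV of the nematode Caenorhabditis elegans, taken as every row of the 3 deposited peak lists whose chromosome is IV. They number 4817 of the 30000 peaks of ChIP replicate 1, 4882 of the 30000 of ChIP replicate 2, and 14 of the 89 peaks of a combined list. The series holds 2 NHR-237 ChIP samples and 2 input samples, all from hermaphrodites of strain OP228 at the L3 larval stage, grown at 20 °C. Every sample, inputs included, carries the unc119(ed3) mutation and the transgene wgIs228, in which nhr-237 is joined to TY1, EGFP and FLAG tags and which also holds unc119. The tagged protein thus comes from a transgene brought in by biolistic bombardment, whole animals were used, and no untagged strain was analysed here. Chromatin was precipitated with an antibody against GFP, and the inputs are lysate kept back before precipitation. Peak lists of the inputs were not analysed here, and a peak list holds no reads, so the depth behind each peak is unknown.

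NHR-237 is a nuclear hormone receptor, a class of transcription factor that binds DNA through zinc fingers and, in many relatives, changes activity when a small lipophilic ligand is bound. This family is much enlarged in nematodes, and most of its members have no known ligand. Chromosome IV stands out among the worm's autosomes because most piRNA genes lie on it, in 2 broad stretches. piRNAs are short RNAs that load onto a Piwi-class Argonaute protein in the germ line and silence transposons and other foreign sequence, and most piRNA genes of the worm are transcribed singly from their own small promoters. The stretches were taken here as 4.5 to 7 Mb (the first stretch) and 13.5 to 17.2 Mb (the second stretch). Positions are those of the WormBase WS220 build.

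Each peak carries a number counted from 1 within its list, used here as its rank, and a score of undeclared unit. All peaks of a list have 1 width: 490 bp in replicate 1, 480 bp in replicate 2 and 520 bp in the combined list. A replicate peak was called shared when it overlapped a peak of the other replicate by 1 bp or more. Beside it stands the share of positions, the percentage of start positions on the chromosome at which a peak of that width would meet a peak of the other list. Shares carry exact 95% Clopper-Pearson intervals, which cover the number of peaks only. There is 1 pair of replicates, peaks of a list come from 1 library, and nothing states that the replicates were separate cultures, so no test was made and differences are set against the difference between the replicates.

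Combined peaks on chromosome IV were spread from 4.02 Mb to 17.3 Mb and left the leftmost part of the chromosome empty. The chromosome held 15.7% of the combined list (interval 8.88 to 25) and makes up 17.4% of the genome span. All 14 overlapped a peak in both replicates, as did 100% of the combined list over all chromosomes, and the 3 lists rest on the same ChIP libraries. Their partners had a median number of 282.5 in replicate 1 and 186 in replicate 2 on chromosome IV, against 95 and 86 for the 75 combined peaks elsewhere. Chromosome X held 26 of those 75, and no partner medians were taken without it. The median combined number was 63 on chromosome IV, 47 to 60 on the other autosomes and 13.5 on X. The best placed was number 25 on I, 16 on II, 15 on III, 17 on V and 1 on X. None of the 14 on chromosome IV was among the first 23 combined peaks, and their best placed was number 24.

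The best placed of them, combined peak 24, lay at IV:17249689-17250208 with a score of 0.154. It matched number 98 in replicate 1 and number 14 in replicate 2, the lowest number of any peak on the chromosome in that replicate. Combined peak 26 lay close by at IV:17278238-17278757, with number 25 in replicate 1 and number 229 in replicate 2. Both were just beyond the right edge of the second stretch, near the end of the chromosome. Combined peak 30, at IV:4024864-4025383, matched number 65 in replicate 1 and number 45 in replicate 2. Peaks 24 and 30 were the 2 of 14 that were numbered 1 to 100 in both replicates (14.3%, interval 1.78 to 42.8), against a background of 32.6% for the whole combined list. That background includes X, and no such share was taken without X. Combined peaks 24, 26 and 30 were also the 3 of 14 on the chromosome with a score above 0. In the whole combined list 31 of 89 had such a score, 19 of them on X.

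The other combined peaks were placed unevenly by the replicates. Combined peak 36, at IV:4749794-4750313 inside the first stretch, matched number 23 in replicate 1, the lowest of chromosome IV there, and number 176 in replicate 2. Combined peak 47, at IV:8311772-8312291, matched numbers 58 and 153 in replicates 1 and 2. Another 2 were early in a single replicate. Combined peak 37, at IV:12981569-12982088, matched number 33 in replicate 1 and number 2557 in replicate 2, while combined peak 84, at IV:12427126-12427645, matched number 4038 in replicate 1 and number 49 in replicate 2.

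The remaining 7 matched no peak of the first 100 in either replicate. Combined peaks 67 and 68, at IV:10760171-10760690 and IV:10742077-10742596, lay in the same Mb as combined peak 81 at IV:10500254-10500773. All 3 were earlier in replicate 2 (144, 196 and 154) than in replicate 1 (815, 1544 and 1013). Combined peaks 59 (IV:14422386-14422905), 75 (IV:6906641-6907160) and 85 (IV:9965094-9965613) had numbers 254, 467 and 311 in replicate 1 and 697, 521 and 771 in replicate 2. Combined peak 74, at IV:11971574-11972093, had 894 and 469. Neither replicate led throughout, since 7 of the 14 had the lower number in replicate 1 and 7 in replicate 2. Numbers of at most 1000 in both replicates were found for 10 of the 14 (71.4%, interval 41.9 to 91.6), near the background of 77.5%.

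Matching replicate peaks lay close together even where the replicates ranked them apart. Both overlap the same combined peak, which bounds the distance between their midpoints. Where several peaks overlapped, the lowest numbered was taken, which need not be the nearest. Midpoints of the 2 matching replicate peaks lay a median of 45 bp from each other on chromosome IV and 26 bp elsewhere, and at most 166 bp apart on chromosome IV. For combined peak 37, whose numbers were 33 and 2557, the midpoints differed by 9 bp. For combined peak 84 they differed by 18 bp.

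**Figure D1:**
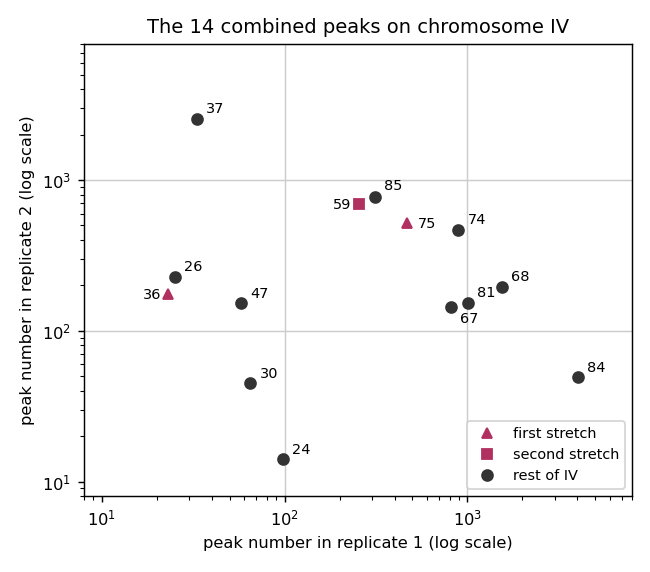
Peak number in replicate 1 (x axis) against that in replicate 2 (y axis), both on log scales, for the 14 combined peaks on chromosome IV, labelled by combined number, with a triangle for the first piRNA-rich stretch, a square for the second and circles for the rest; grey lines stand at 100 and 1000. Peaks 24 and 30 alone lie at or below 100 on both axes, and peaks 37 and 84 lie far from the diagonal on opposite sides.

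Among replicate peaks numbered 1 to 100, chromosome IV held 14 in replicate 1 and 12 in replicate 2. The only places that both lists had among their first 100 were those of combined peaks 24 and 30. These were 2 of the 14 and 2 of the 12, against a background of 29 of 100 in each replicate. Much of that background came from X, with 17 of 38 in replicate 1 and 17 of 26 in replicate 2. The other autosomes had 10 of 48 and 10 of 62, so chromosome IV was near them. Any peak of the other replicate was met by 9 of the 14 and by 10 of the 12. Of the 14 in replicate 1, 6 overlapped a combined peak (42.9%, numbers 23, 25, 33, 58, 65 and 98, background 46%), and of the 12 in replicate 2, 3 did (25%, numbers 14, 45 and 49, background 42%). In replicate 1 the other leading peaks included numbers 34, 45 and 53 at IV:14955758-14956247, IV:14556775-14557264 and IV:14594204-14594693. These 3 lay in the second stretch within the same Mb, had scores above 0 and had no replicate 2 peak overlapping them. Their nearest replicate 2 midpoints were 2514, 3367 and 865 bp away. A score above 0 was found for 674 of the 4817 replicate 1 peaks on chromosome IV and for 4189 of the 30000 in that list. The same Mb, 14 to 15 Mb, held 318 peaks in replicate 1 and 259 in replicate 2, and 15 against 5 peaks numbered 1 to 1000.

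Another 2 leading peaks of replicate 1 had no partner, number 71 at IV:6841000-6841489 in the first stretch and number 93 at IV:1527091-1527580. Numbers 55, 57 and 70, at IV:12355570-12356059, IV:12814316-12814805 and IV:8439856-8440345, met replicate 2 peaks numbered 5930, 2396 and 8606. In replicate 2 the leading peaks without a partner were number 36 at IV:11450371-11450850 and number 68 at IV:1250754-1251233. Numbers 37, 39 and 40 (IV:14033167-14033646, IV:12835911-12836390 and IV:654602-655081) met replicate 1 peaks numbered 4548, 19284 and 3025. Numbers 53 and 54 (IV:8272283-8272762 and IV:4035834-4036313) met 15195 and 7834. Numbers 72 and 100 (IV:4361884-4362363 and IV:2085791-2086270) met 23626 and 18652. By place, 8 of the 14 in replicate 1 were in the right-hand part when the chromosome was cut into 3 equal lengths (57.1%, interval 28.9 to 82.3). In replicate 2, 6 of the 12 were in the left-hand part (50%, interval 21.1 to 78.9). Both intervals contain the 33.3% by length. On the other chromosomes the same shares ran from 26.3% (X) to 50% (III) and from 17.6% (II) to 40% (III).

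Peaks numbered up to 1000 recurred in the other replicate more often than later ones, on chromosome IV as elsewhere. Of all replicate 1 peaks on chromosome IV, 45.4% were shared (2188 of 4817, interval 44.0 to 46.8), against 45.9% on the other chromosomes and a background of 45.8% over all chromosomes. Of the replicate 2 peaks, 44.0% were shared (2149 of 4882, interval 42.6 to 45.4), against 46.1% elsewhere and a background of 45.8%. The share of positions was 24.1% and 23.7% on chromosome IV for replicates 1 and 2, against 25.9% and 26.0% elsewhere. Shared peaks were thus 1.88-fold and 1.86-fold as frequent as such positions on chromosome IV, and 1.77-fold as frequent elsewhere in both replicates. On the plain share chromosome IV was lower by 0.505 and 2.10 percentage points. After subtraction of the share of positions it was higher, by 1.31 and 0.212 points. Against the other autosomes alone, without X, the plain share was higher by 0.199 points in replicate 1 and lower by 1.24 in replicate 2. The sign thus depended on the subtraction, on the chromosomes compared and on the replicate.

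By number class, replicate 1 shared 9 of 14 peaks numbered 1 to 100 (64.3%, interval 35.1 to 87.2, background 83%), 88 of 142 numbered above 100 and up to 1000 (62%, interval 53.5 to 70.0, background 62.9%) and 2091 of 4661 above 1000 (44.9%, interval 43.4 to 46.3, background 45.2%). Replicate 2 shared 10 of 12 (83.3%, interval 51.6 to 97.9, background 80%), 88 of 133 (66.2%, interval 57.5 to 74.1, background 63.3%) and 2051 of 4737 (43.3%, interval 41.9 to 44.7, background 45.1%). In replicate 1 the leading class recurred less often on chromosome IV than elsewhere (74 of 86, 86.0%), in replicate 2 about as often (70 of 88, 79.5%). The replicates therefore disagreed on the direction, and with 14 and 12 peaks the interval on chromosome IV contains the value elsewhere in each replicate. On chromosome IV the order of the classes holds for the peak number only. With the lists ordered by the authors' score, its peaks among the first 100 shared 50% in replicate 1 and 21.4% in replicate 2. Its peaks among the next up to 1000 shared 40.8 and 29.1%, and the remainder 45.6 and 44.6%. The order by score ran over all chromosomes of a list, but the shares were taken on chromosome IV only. They have no peak counts, intervals or background.

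**Figure D2:**
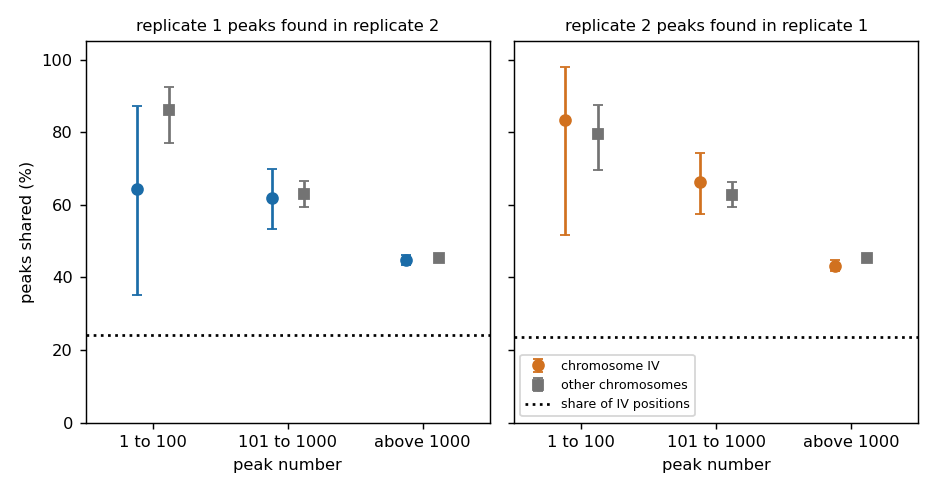
Percentage of replicate 1 peaks found in replicate 2 (left) and of replicate 2 peaks found in replicate 1 (right) by peak number, for chromosome IV (coloured circles) and the other chromosomes (grey squares), with exact 95% intervals; the dotted line is the share of positions on chromosome IV. Shares on chromosome IV are 64.3 and 83.3%, then 62 and 66.2%, then 44.9 and 43.3% from the first class to the last, with long bars for the 14 and 12 leading peaks of chromosome IV.

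Within the class above 1000 the decline continued. In replicate 1 the share was 53.4% for numbers above 1000 and up to 3000 (n = 337), 51.7% up to 10000 (n = 1114), 44.8% up to 20000 (n = 1591) and 38.4% up to 30000 (n = 1619). In replicate 2 it was 55.4% (n = 303), 50.4% (n = 1102), 43.5% (n = 1618) and 36.4% (n = 1714). Even the last step stayed above the share of positions. Against the other chromosomes the direction varied from step to step. Up to 3000, chromosome IV was lower by 6.06 and 2.83 percentage points in replicates 1 and 2, and up to 10000 it was higher by 2.32 and 0.583. Up to 20000 the replicates differed in sign, and in the last step chromosome IV was lower by 1.76 and 4.33, with a share of positions that was lower as well.

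Peaks numbered above 100 and up to 1000 seldom met an early peak of the other replicate, and those up to 100 did so more often. Of the replicate 1 peaks numbered 1 to 100 on chromosome IV, 5 of 14 (35.7%, interval 12.8 to 64.9) met a replicate 2 peak numbered 1 to 1000, against a background of 42%, and of those numbered above 100 and up to 1000, 11 of 142 did (7.75%, background 7.44%). For replicate 2 the counts were 2 of 12 (16.7%, interval 2.09 to 48.4, background 36%) and 14 of 133 (10.5%, background 8%). For numbers 1 to 100 the background includes X, with 55.3% in replicate 1 and 65.4% in replicate 2. The other autosomes had 33.3% and 27.4%. The median matching number for the class above 100 and up to 1000 was 9286 for replicate 1 peaks and 9138 for replicate 2 peaks. For the class up to 100 it was 229 for replicate 1 peaks, of which 5 of the 9 shared met a number up to 1000, and 6191 for replicate 2 peaks, of which 2 of the 10 did. Across 1899 pairs of mutually nearest overlapping peaks on chromosome IV, Spearman's rho between the peak numbers was 0.0881, and on the other chromosomes it ranged from 0.0743 to 0.155. These points share the genome's sequence, and the value is given as a description.

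Midpoints lay within 100 bp of each other for 23.4% of replicate 1 peaks and 23.1% of replicate 2 peaks on chromosome IV, against a background of 23.3% in either direction. The share of positions on chromosome IV at which a midpoint would fall that close was 5.61% and 5.54%. The pairs are chosen to overlap, which bounds the distance between their midpoints. Of the 1899 pairs, both members were numbered 1 to 1000 in 13, and all 13 had midpoints within 100 bp (median distance 47 bp). Where 1 member was so numbered (149 pairs), 70.5% were within 100 bp, with a median of 43 bp. Where neither was (1737 pairs), 58.2% were, with a median of 73 bp. The other chromosomes had similar shares for the last classes, with 67.3 to 72.3% for 1 member and 56.1 to 58.5% for neither. Their medians, 52.5 to 66.5 bp for 1 member and 74 to 82 bp for neither, were above those of chromosome IV. For both members the other chromosomes had 81.3 to 100% within 100 bp, and their medians of 18.5 to 34 bp were below the 47 bp of chromosome IV.

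**Figure D3:**
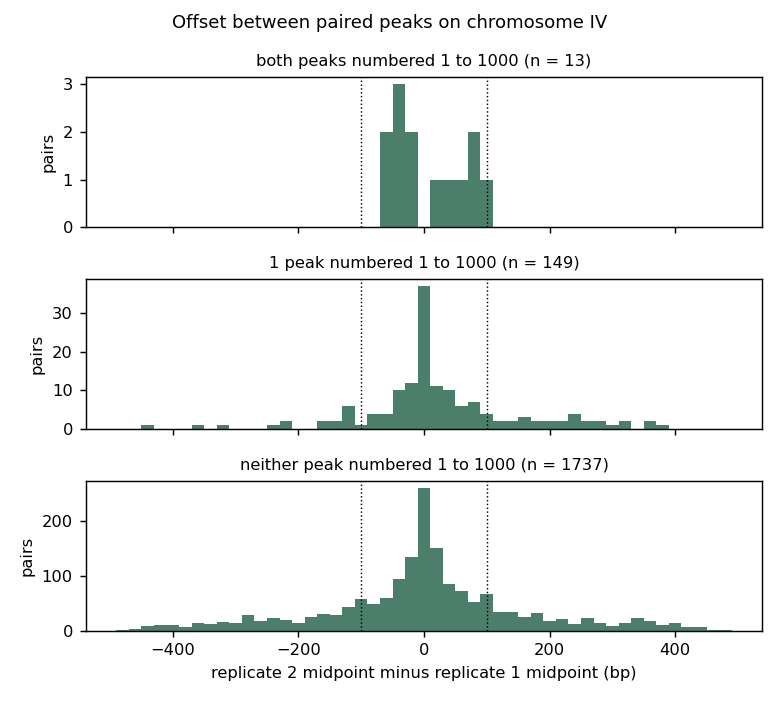
Number of mutually nearest overlapping peak pairs on chromosome IV (y axis) by the replicate 2 midpoint minus the replicate 1 midpoint in bp (x axis, bins of 20 bp), for pairs with both, 1 or neither peak numbered 1 to 1000; dotted lines stand 100 bp to each side of 0. All 13 pairs of the top panel lie between the lines, and the lower panels peak at 0 with tails to both sides.

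Peaks of all numbers were sparser on chromosome IV than on the rest of the genome. There were 275.4 peaks per Mb in replicate 1 and 279.1 in replicate 2, against 304.3 and 303.5 on the other chromosomes together, a difference several times that between the replicates. Chromosome III (276.9 and 282.1) and chromosome I (284.7 and 284.8) were close to chromosome IV, so it was not alone at the low end. Peaks covered 12.6% of chromosome IV in both replicates, against 13.9% and 13.6% elsewhere. Overlapping peaks merged into 4174 and 4256 regions.

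Density was highest in the middle of chromosome IV and lower towards both ends. In 17 whole windows of 1 Mb, replicate 1 had 210 to 344 peaks (median 283) and replicate 2 had 208 to 344 (median 270), a range of 1.64-fold and 1.65-fold. The densest windows were 10 to 11 Mb (344) and 12 to 13 Mb (325) in replicate 1, and 9 to 10 Mb (344) and 10 to 11 Mb (338) in replicate 2. The sparsest in replicate 1 was 1 to 2 Mb (210), followed by 2 to 3 and 16 to 17 Mb with 216 each. In replicate 2 the sparsest were 2 to 3 Mb (208) and 16 to 17 Mb (231). The window counts of the replicates had a Pearson r of 0.779 and a Spearman's rho of 0.821 over 17 windows, which share sequence and mappability.

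The shared percentage varied along the chromosome and was above the share of positions in all 17 whole windows of both replicates. It ran from 39.4 to 54.1% in replicate 1 and from 32.1 to 51.4% in replicate 2. The highest was at 11 to 12 Mb in replicate 1 (54.1%, share of positions 28.5%). At 11 to 12 Mb and 14 to 15 Mb replicate 2 had the same 51.4%, and the share of positions was 27.5% and 27.3%. The lowest in replicate 2 was at 15 to 16 Mb, with 32.1% and a share of positions of 18.7%.

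**Figure D4:**
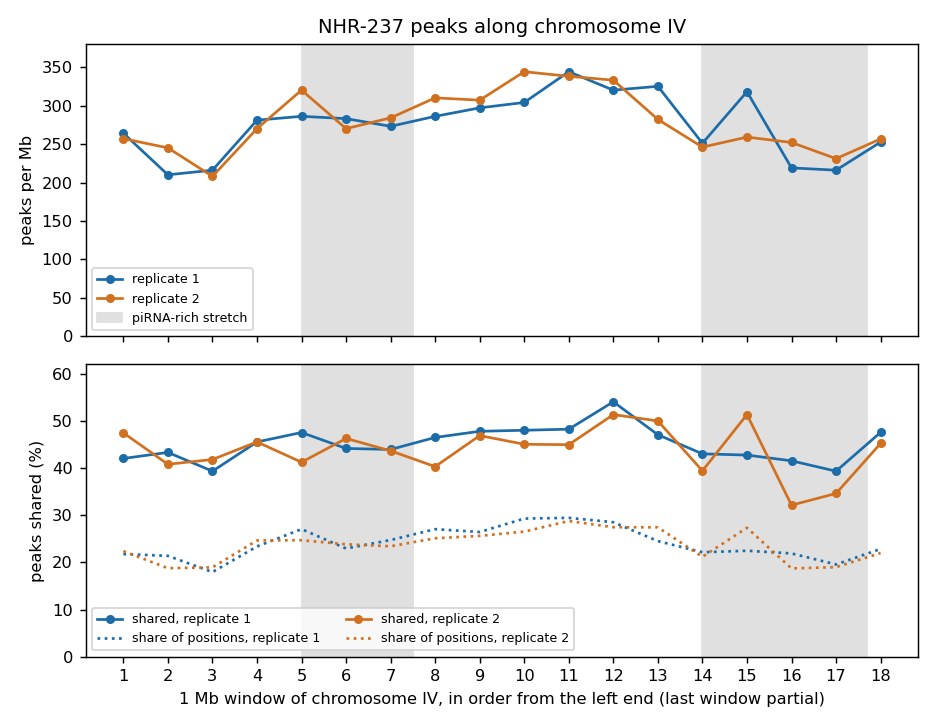
Top, peaks per Mb in each 1 Mb window of chromosome IV in order from the left end (the last window is partial); bottom, the percentage of peaks shared with the other replicate (solid) and the share of positions (dotted); grey bands mark the piRNA-rich stretches. Density reaches 344 in the middle, window 15 has 318 peaks in replicate 1 and 259 in replicate 2, and all solid points lie above the dotted lines.

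Cut into 3 equal lengths of 5.83 Mb, the chromosome had most peaks in its center. The central part held 36.7% of replicate 1 peaks (1768, interval 35.3 to 38.1) and 37.8% of replicate 2 peaks (1845, interval 36.4 to 39.2), against 33.3% by length. The left part held 30.8 and 31.2% and the right part 32.5 and 31.0%. Central shares on the other chromosomes ran from 34.1% (X) to 38.9% (III) in replicate 1 and from 34.2% (X) to 40.0% (III) in replicate 2, so chromosome IV lay inside that range. Of the peaks numbered 1 to 1000, the central part held 66 of 156 in replicate 1 (42.3%, interval 34.4 to 50.5) and 62 of 145 in replicate 2 (42.8%, interval 34.6 to 51.2), and both intervals contain the share of all peaks. Of those numbered 1 to 100 it held 3 of 14 (21.4%, interval 4.66 to 50.8) and 2 of 12 (16.7%, interval 2.09 to 48.4). These wide intervals contain both the 33.3% by length and the share for numbers 1 to 1000, so the first 100 give no direction. The other autosomes ran from 40.7 to 45.5% in replicate 1 and from 41.3 to 45.6% in replicate 2 for peaks numbered 1 to 1000, so chromosome IV lay among them. The replicates differed on the arms for these early peaks, with 34 on the left and 56 on the right in replicate 1, and 48 on the left and 35 on the right in replicate 2. Combined peaks numbered 2, 6 and 6 from left to right.

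The piRNA-rich stretches held slightly fewer peaks than the rest of chromosome IV, with the lower density in the second stretch. Both stretches together, 35.4% of the chromosome, held 33.3% of replicate 1 peaks (1602 of 4817, interval 31.9 to 34.6) and 33.0% of replicate 2 peaks (1610 of 4882, interval 31.7 to 34.3). Their density was 258.4 and 259.7 peaks per Mb, against 284.7 and 289.8 in the rest, a ratio of 0.907 in replicate 1 and 0.896 in replicate 2. The first stretch had 276.8 and 288.4 peaks per Mb, a ratio of 0.972 and 0.995, near the rest. The second stretch had 245.9 and 240.3 peaks per Mb, a ratio of 0.864 and 0.829. The rest was not uniform. Its 4.5 Mb left of the first stretch had 249.1 and 251.8 peaks per Mb, below both stretches together. Its 6.5 Mb between the stretches had 309.2 and 314.8. A low density was thus not particular to the piRNA-rich stretches. By 100 kb windows, the median count was 27 and 29 in the first stretch, 25 and 24 in the second, and 29 and 29.5 in the rest. The windows overlapped widely, since those of the second stretch ran from 14 to 35 and from 12 to 36, and those of the rest from 11 to 45 and from 12 to 49.

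**Figure D5:**
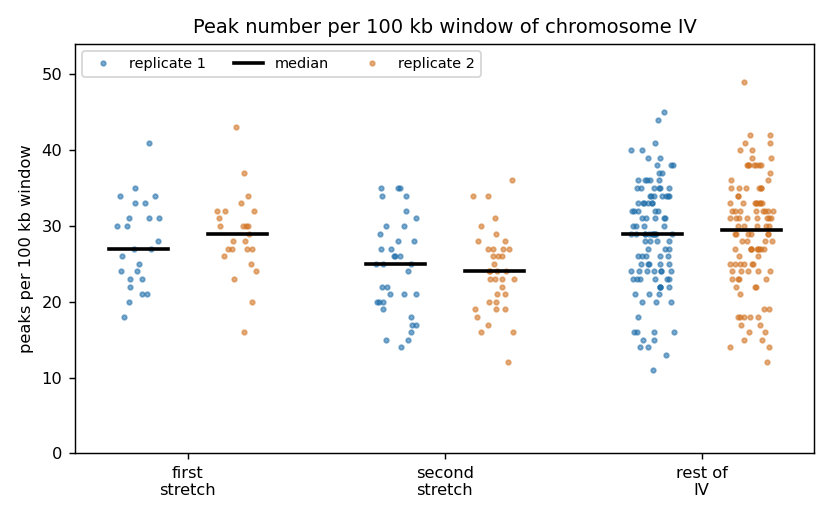
Number of peaks in each 100 kb window of chromosome IV (y axis) for the first stretch (25 windows), the second stretch (37 windows) and the rest (112 windows), in replicate 1 (blue) and replicate 2 (orange); black bars are medians. The medians of the second stretch, 25 and 24, lie below those of the rest, 29 and 29.5, and the clouds of points overlap.

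A lower density in this part of the right arm was not peculiar to chromosome IV. When the second stretch was scaled to the same relative position on the other chromosomes, a comparison chosen after the values were seen, the ratio to the rest was 0.743 and 0.731 on II, 0.836 and 0.831 on III, and 0.811 and 0.774 on V in replicates 1 and 2. It was 0.990 and 0.969 on I and 1.03 and 1.0 on X. The value of chromosome IV, 0.864 and 0.829, lay between these. At the relative position of the first stretch the ratio was 0.976 and 0.936 on II and from 1.05 to 1.20 on I, III, V and X, so chromosome IV, with 0.972 and 0.995, was at the lower end with II.

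Early peaks were scarcer in the second stretch than in the rest as a whole, by an amount that differed between the replicates. Replicate 1 had 28 peaks numbered 1 to 1000 there (7.57 per Mb, against 9.39 in the rest) and replicate 2 had 12 (3.24 per Mb, against 10.3). These were 17.9% (interval 12.3 to 24.9) and 8.28% (interval 4.35 to 14) of such peaks, and the stretch is 21.2% of the chromosome, which lies inside the interval of replicate 1 and above that of replicate 2. At the same relative position on the other chromosomes, the ratio for such peaks ran from 0.524 on V to 1.13 on I in replicate 1 and from 0.596 on III to 1.06 on I in replicate 2. Chromosome IV had 0.806 and 0.316, inside that range in replicate 1 and below it in replicate 2. Left of the first stretch there were 4.67 and 8.67 such peaks per Mb, in replicate 1 fewer than in the second stretch. The first stretch had 22 and 17, a ratio of 0.937 and 0.662. At its relative position the other chromosomes ran from 0.748 on V to 1.74 on I in replicate 1. In replicate 2 they ran from 1.01 on II to 1.30 on III, above chromosome IV. Of the 14 combined peaks, 2 were in the first stretch (36 and 75) and 1 in the second (59), so the stretches held 21.4% (interval 4.66 to 50.8), and 8 lay between the stretches. The 6.5 Mb between them was the richest large part, with 82 and 73 peaks numbered 1 to 1000, or 12.6 and 11.2 per Mb.

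The plain percentage of shared peaks was lower in the stretches, but as a ratio to the share of positions it was not. In replicate 1 42.6% of peaks in the stretches were shared (interval 40.1 to 45.0), against 46.8% in the rest (interval 45.1 to 48.6). In replicate 2 41.2% were (interval 38.8 to 43.6), against 45.4% (interval 43.7 to 47.1). The share of positions was lower there as well, at 22.4 and 22.2%, against 25.1 and 24.5% in the rest. Shared peaks were 1.90-fold and 1.85-fold as frequent as such positions in the stretches, and 1.87-fold and 1.85-fold in the rest. By stretch, the ratio was 1.77-fold and 1.79-fold in the first and 2.00-fold and 1.89-fold in the second. Subtraction of the share of positions, in place of the ratio, leaves less in the stretches than in the rest in both replicates.

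Some long stretches without any peak were found in both replicates. On chromosome IV there were 41 gaps of at least 20 kb in replicate 1 and 37 in replicate 2, or 2.34 and 2.12 per Mb. The other chromosomes together had 1.5 and 1.44 per Mb. They ranged from 0.903 on X in both replicates to 2.03 on III in replicate 1 and 1.86 on I in replicate 2. Chromosomes I and III, of similar peak density, had 1.79 and 2.03 in replicate 1 and 1.86 and 1.74 in replicate 2. Of the gaps on chromosome IV, 18 of 41 (43.9%, background 37.6%) and 19 of 37 (51.4%, background 41%) overlapped such a gap of the other replicate, and the others did not. Gaps were counted between peaks only, so the chromosome ends were left out. The first peak began at position 53239 in replicate 1 and at 48404 in replicate 2. The longest gap between peaks was the same in both: 51.5 kb at IV:6681769-6733271 in replicate 1 and 51.3 kb at IV:6681709-6732959 in replicate 2. It lay inside the first stretch, with 51.2 kb in common. A second shared gap of the first stretch lay at IV:5231281-5261675 in replicate 1 (30.4 kb) and was contained in a replicate 2 gap of 30.9 kb. The second stretch, 21.2% of the chromosome, held 11 of the 41 gaps and 13 of the 37, the first stretch held 5 and 3, and the rest held 25 and 21. Whether repeats or sequence that cannot be mapped lies in these gaps was not tested, since no genome of this build was used.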

How the data were processed

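Chromatin immunoprecipitation and sequencing was carried out on 2 NHR-237 ChIP samples with 2 input samples. Per the labels' protocols, worms were fixed with 2% formaldehyde and chromatin was sonicated. The authors deposited peak lists with a score per peak, whose unit was not given in the sources used here. Per the file headers positions refer to WormBase WS220, and the deposited source column reads spp_via_IDR. The aligner, versions, thresholds and use of the inputs were not given in the sources used here.

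Samples were grouped by their titles. Peaks on chromosome IV were placed by midpoint, and the chromosome was taken to end with its last replicate peak (17.5 Mb). Where a peak met several, the lowest number was taken. The text names all combined peaks, all replicate peaks numbered 1 to 100, and the 2 densest and sparsest windows. Regions, classes and comparisons were chosen with earlier results of these data known. Gaps, offsets and relative positions were added after the values were seen. Python 3.11.15 with numpy 2.4.6, pandas 2.3.3, scipy 1.17.1 and matplotlib 3.10.9 was used, and procedures were tested on simulated data. Unknown depth means that no peak has a counting error. Genes and sequences at the peaks were not analysed here.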

Additional observations from a re-analysis of the deposited data

How the results depend on the processing

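Values are means of both replicates. Of 54 alternatives to 9 results, 28 stayed within the spread of the replicates (for counts, within 1.5 times), 25 moved and 1 changed sign. The spread is the standard deviation of the replicate values, so every alternative that left out a replicate stayed within it by arithmetic. The class above 1000 was unchanged by definition when a partner of the same or an earlier class was asked for. The count of 28 includes these. The correlation between windows has 1 value and no spread of replicates, so its other window sizes were counted as moved by definition. The density ratio of the piRNA-rich stretches to the rest (0.902) stayed below 1 in all 11 alternatives: 0.657 for numbers 1 to 1000, 0.894 with edges widened by 0.25 Mb, 0.884 against the rest of the same part of 3, and, chosen after the values were seen, 0.984 for the first and 0.846 for the second stretch. Leaving out a replicate gave 0.896 to 0.907. The central share (37.2%) stayed above 33.3% in all 6, at 42.5% for numbers 1 to 1000, 38.4% for 1 to 15000 and 36.7 to 37.8% in single replicates. Shared peaks (44.7% for all numbers; 73.8, 64.1 and 44.1% in the classes 1 to 100, above 100 up to 1000, and above 1000) moved with the overlap rule. At least 50% of both peaks gave 34.9, 56.8 and 34.1% for all, the second and the last class. Midpoints within 100 bp gave 23.3% for all and 53.0, 42.7 and 22.6% by class. Partners numbered 1 to 15000 gave 26.4% for all and 57.1, 43.0 and 25.8%. A partner of the same or an earlier class left 43.0% for all, 15.5% for the first class and 9.14% for the second. These rules are narrower by construction. With peaks ordered by the authors' score, the first class on chromosome IV held 35.7% and the second 34.9%, below the 45.1% of the last. The decline with rank there thus holds for the peak number and not for the score. Shares by score were not taken on the other chromosomes, and the cause was not tested. Single replicates gave 44.0 to 45.4% for all, 64.3 to 83.3% for the first class, 62 to 66.2% for the second and 43.3 to 44.9% above 1000. The combined peaks found in both replicates numbered 14, and 13 to 14 or, among numbers 1 to 1000, 10. Chromosome IV minus the others (-1.30 percentage points, single replicates -2.10 to -0.505) was 0.761 after subtraction of the share of positions. Spearman's rho between windows was 0.738 at 500 kb and 0.566 at 100 kb, both added after the values were seen. No paired analysis was possible because the inputs that share the ChIP samples' replicate numbers have no list analysed here. Unknown depth limits statements on peaks absent from a list.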
